A study of Mus musculus domesticus and Mus musculus domesticus x Mus musculus castaneus and Mus musculus castaneus with 27 samples.

Results

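The change in gene expression from pluripotent stem cells (PSC) to motor neurons (MN) was compared between a hybrid mouse line, CAS129, and the laboratory strain C57BL/6 (BL6). For each gene the log2 change from PSC to MN was taken within each genotype, and the BL6 change was subtracted from the CAS129 change. A positive difference of changes means that the gene rose more, or fell less, in CAS129. The comparison used 14 of the 27 samples of the series: 2 BL6 PSC, 7 BL6 MN, 2 CAS129 PSC and 3 CAS129 MN libraries. The BL6 line is labelled C57BL/6 and given as C57BL/6J in the design text, and CAS129 is labelled a first-generation hybrid of Mus musculus domesticus and Mus musculus castaneus. The design text names CAST/EiJ and 129S6/SvEv as the parental strains, and the labels do not say which one was the mother. No transgene, sort or drug is given for any of the 4 groups, and age does not apply to these cultured cells. Of 27071 gene identifiers, 17428 had a count in a CAS129 library, and 14454 of these reached 1 CPM (counts scaled to a common library size) in at least 2 libraries and were tested.

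Total counts were 12.99 M and 13.62 M in BL6 PSC, 7.6 M to 10.36 M in BL6 MN, 4.5 M and 5.51 M in CAS129 PSC and 5.61 M to 6.29 M in CAS129 MN. A further 800 genes would have passed the level filter but had 0 counts in every CAS129 library and were left out. Among them were Pcna and Tyms of the cell cycle list below, Pgk1 of the glycolysis list, and Map2 and Mapt of the pan-neuronal list. Whether these zeros arose in the cells or in the counting of hybrid reads was not tested, which also limits comparison of levels between the genotypes. All 9643 identifiers at 0 in every CAS129 library, those below the filter included, held 4.12% to 4.94% of the counts of each BL6 library. Whether replicates are separate cultures is not stated in the labels; the p-values therefore reflect the spread among these libraries alone, which may be technical. Stem cell and neuron RNA was extracted with different kits, so an effect of the kit cannot be told apart from one of the cell type. The summed level of 7 motor neuron markers was 585 to 1839 CPM in BL6 MN, 316 to 404 CPM in CAS129 MN and at most 42.3 CPM in any PSC library. The summed level of 21 naive pluripotency genes was 7137 to 7497 CPM in BL6 PSC and 6684 to 9081 CPM in CAS129 PSC. The MN libraries held 121 to 262 CPM in BL6 and 611 to 1481 CPM in CAS129. Both PSC groups thus held stem cell markers and both MN groups motor neuron markers, and the CAS129 MN libraries held stem cell transcripts as well. Mnx1, Isl1 and Chat made up little of the motor neuron sum in either MN group, and their levels are given below.

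Pluripotent stem cells of the mouse are held in their state by a network of transcription factors around Pou5f1, Sox2 and Esrrb, and by the cytokine LIF. Fibroblast growth factor (FGF) signalling through ERK moves them from the naive state towards the formative and primed states that precede differentiation. During the making of motor neurons, retinoic acid and hedgehog signals pattern neural progenitors, which leave the cell cycle as they become neurons.

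A difference of changes was called for 2165 genes, 15.0% of those tested, at an adjusted p under 0.05 (edgeR's quasi-likelihood test, Benjamini-Hochberg adjusted, as for every adjusted p given here). Of these, 1404 (9.71% of genes tested) had a higher change in CAS129 and 761 (5.26%) a lower one. The counts of higher and lower changes in each gene list below are to be read beside these shares. The median difference over all genes tested was 0.15 on the log2 scale. With RLE scaling that median was 0.00 and the split was 1137 higher and 970 lower, so part of the excess of higher changes depends on the scaling. With the difference centred on 0 the split was 1104 and 987, and with DESeq2 it was 1485 and 1455. In single comparisons of the same fit, 10247 genes (70.9%) differed between MN and PSC in BL6 and 8537 (59.1%) in CAS129. By direction, 34.7% of all genes tested rose in BL6 and 28.8% in CAS129. Between the genotypes, 4318 genes (29.9%) differed in PSC and 6968 (48.2%) in MN. In CAS129 PSC 18.0% of genes were lower and 11.9% higher than in BL6 PSC. The count of 2165 was 1213 without CAS129 PSC replicate 2, 1404 without CAS129 MN replicate 1, 1439 without CAS129 MN replicate 2 and 3051 without BL6 PSC replicate 1.

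The most frequent pattern among the 1404 genes with a higher change was a fall in both genotypes that was smaller in CAS129 (530 genes). Another 337 fell in BL6 and were not called in CAS129, 282 rose in both, 170 rose in CAS129 and were not called in BL6, and 85 fell in BL6 but rose in CAS129. Seen by genotype, 649 of the 1404 were higher in CAS129 MN with no call between the PSC groups. In 393 genes CAS129 PSC were lower with no call between the MN groups, and in 156 both applied. Among the 761 genes with a lower change, 291 rose in BL6 and were not called in CAS129, and 182 fell in CAS129 and were not called in BL6. A further 138 rose in both, 93 rose in BL6 but fell in CAS129, and 57 fell in both. Of the 761, 309 were higher in CAS129 PSC with no call in MN and 246 were lower in CAS129 MN with no call in PSC. The difference between MN groups was larger in size than that between PSC groups for 47.9% of the genes with a higher change and for 36.5% of those with a lower one. Some genes thus differed between the genotypes in the PSC libraries and others in the MN libraries, and both levels are given for each gene below.

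**Figure D1:**
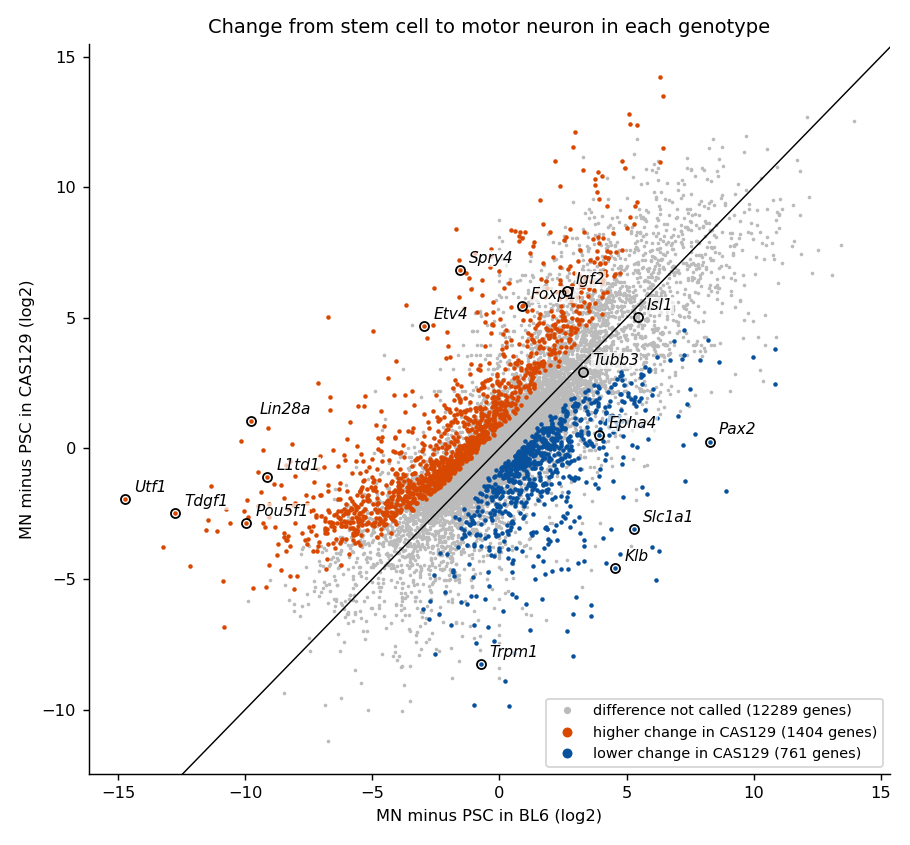
Log2 change from PSC to MN in BL6 (horizontal axis) and CAS129 (vertical axis) for 14454 genes, with the line of equal change. Orange points are the 1404 genes with a higher change in CAS129, blue points the 761 with a lower one, and circles mark named genes: Utf1, Tdgf1 and Pou5f1 fell in both but far less in CAS129, while Isl1 and Tubb3 lie close to the line.

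Most genes of naive pluripotency fell less in CAS129. All 21 members tested fell from PSC to MN in both genotypes (36.2% of all genes tested fell in BL6 and 30.3% in CAS129), and 15 of them had a higher change in CAS129 (Pou5f1, Sox2, Esrrb, Tfcp2l1, Zfp42, Dppa2, Dppa4, Tdgf1, Utf1, Tcl1, Nr0b1, Prdm14, Fgf4, Gdf3 and Sall4). The median difference over the 21 was 4.58, against 0.15 over all genes. Only Tbx3 had a lower change, a call that ended with a replicate block. In all 17 genes of the list whose MN groups did not overlap, the 3 CAS129 libraries lay above the 7 BL6 libraries, as did 24.5% of all genes tested. The count of 15 ranged from 13 to 16 over 24 alternative settings, and the call of Tbx3 ended without BL6 PSC replicate 2 or CAS129 PSC replicate 1. In these bulk samples a larger share of undifferentiated cells and more RNA of these genes per cell cannot be told apart.

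Pou5f1 (chromosome 17, 35506018-35510772, plus strand, GRCm38), the transcription factor that maintains pluripotency, stood at 756 and 1623 CPM in BL6 PSC and 903 and 1038 CPM in CAS129 PSC. In BL6 MN it ran from 0.407 to 1.73 CPM with a median of 1.4, and in CAS129 MN it was 171, 168 and 62.5 CPM. The PSC groups overlapped, and the lowest CAS129 MN library was far above the highest BL6 one. The difference of changes was 7.09 (SE 0.68, adjusted p = 1.6e-05), made of a fall of 9.95 in BL6 and of 2.86 in CAS129 on the log2 scale. Its value lay between 6.44 and 7.54 over the alternatives.

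Tdgf1 (chromosome 9, 110939603-110946158, minus strand), a co-receptor for Nodal, showed the same layout with an even larger difference. It stood at 1217 and 1063 CPM in BL6 PSC, 1048 and 924 CPM in CAS129 PSC, and 229, 219.9 and 78.7 CPM in CAS129 MN. In BL6 MN it was 0 to 0.382 CPM, with 9 counts in all 7 libraries together. The difference of changes was 10.26 (SE 0.67, adjusted p = 5.9e-07), with a CAS129 minus BL6 difference of -0.21 in PSC (adjusted p = 0.73) and 10.05 in MN.

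Utf1 (chromosome 7, 139943789-139945112, plus strand), a chromatin factor of undifferentiated cells, had the highest value among the named genes. It was 594 and 1137 CPM in BL6 PSC, 337 and 263 CPM in CAS129 PSC and 86.7, 107 and 39.9 CPM in CAS129 MN. The 7 BL6 MN libraries together held 1 count, a level of 0.0166 CPM (exact Poisson 95% interval 0.0004 to 0.0926, counting error only). The fitted difference of changes was 12.77 (SE 0.76), and its size rests on that 1 count. Gdf3, a growth factor of the TGF-beta family, and Fgf4, the FGF that the stem cells make themselves, also had 1 count in BL6 MN. Gdf3 stood at 24.3, 26.1 and 7.81 CPM in CAS129 MN and Fgf4 at 25.3, 24.6 and 6.75 CPM. Tcl1, a co-activator of the kinase Akt, had 0 counts in BL6 MN (3 counts over the group would be 0.0499 CPM) and 7.61, 3.97 and 1.78 CPM in CAS129 MN.

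Esrrb (chromosome 12, 86361117-86521628, plus strand), an orphan nuclear receptor of the naive network, stood at 727 and 694 CPM in BL6 PSC and 702 and 386 CPM in CAS129 PSC. It fell to 0.667 to 8.96 CPM in BL6 MN and to 115, 122 and 43.7 CPM in CAS129 MN. The difference was 4.67 (SE 0.86, adjusted p = 0.0031). Sox2, which is shared by stem cells and neural progenitors, had a difference of 3.56 (SE 0.91, adjusted p = 0.017). It was no longer called without CAS129 PSC replicate 1 (3.59, adjusted p = 0.0598) or replicate 2 (3.52, adjusted p = 0.0847).

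**Figure D2:**
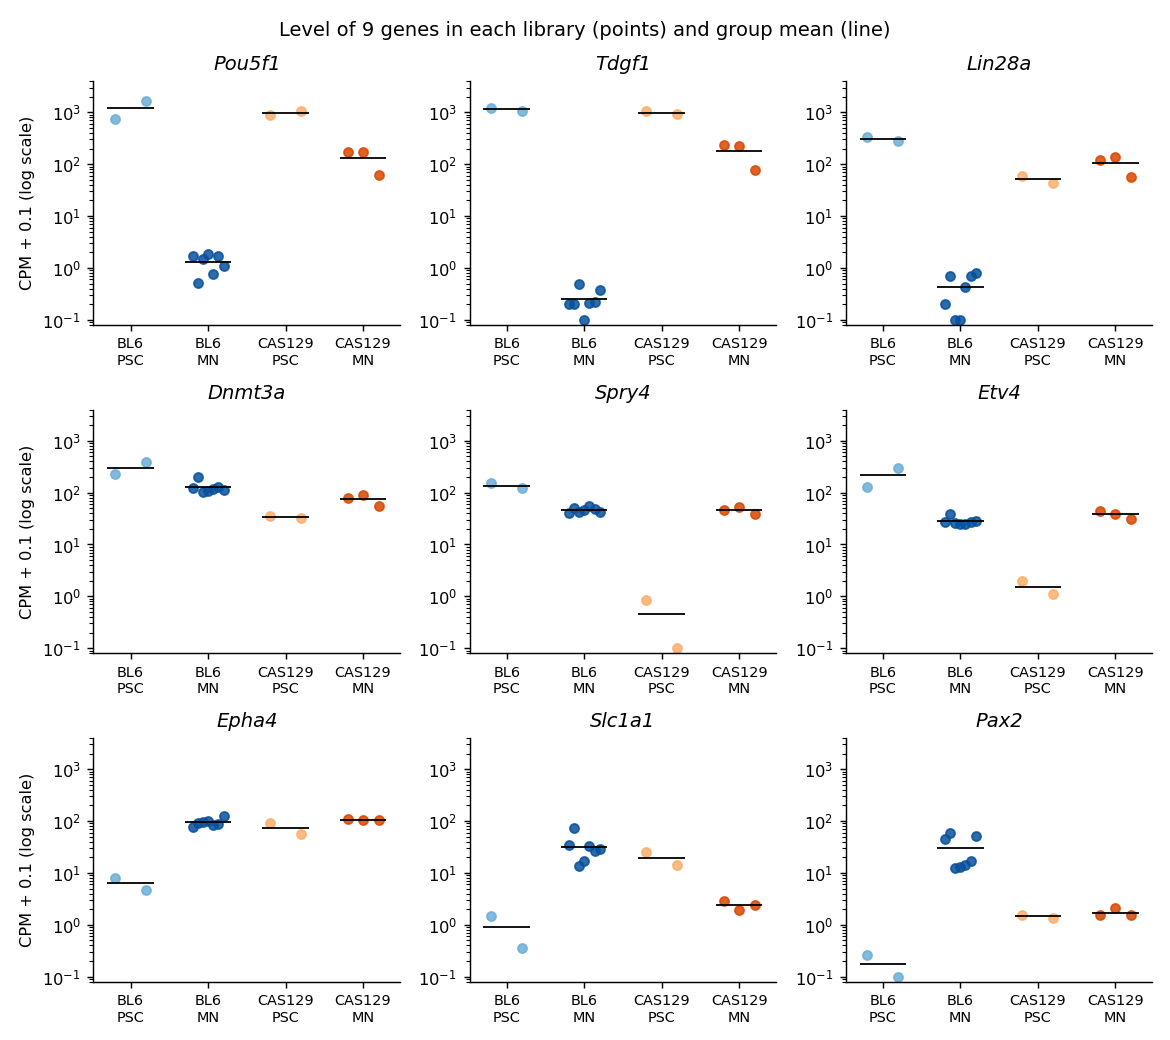
Level of 9 genes in each library (points, CPM + 0.1 on a log axis) with the group mean as a line. Pou5f1, Tdgf1 and Lin28a differ between the MN groups, Spry4 and Etv4 between the PSC groups, Dnmt3a and Epha4 more in PSC than in MN, Slc1a1 in both in opposite directions, and Pax2 in MN.

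What remained of the stem cell level in CAS129 MN was similar across many naive genes and differed between libraries. Expressed as a percent of the mean PSC level of the same genotype, the median over the 21 genes was 18.5%, 19.9% and 7.98% in CAS129 MN replicates 1, 2 and 3. In BL6 MN the median of the group means was 0.352%. The CAS129 mean lay between 10 and 40% for 16 of the 21 genes, and the BL6 mean was below 1% for 14. Replicate 3 had the lowest level of the 3 CAS129 MN libraries for 20 of the 21 genes. Pou5f1 kept 13.8% of its PSC level in CAS129 MN and 0.101% in BL6 MN, and Tdgf1 17.8% and 0.0136%. Tbx3, a T-box factor that is also used outside stem cells, was the exception, with 13.8% in CAS129 and 49.4% in BL6.

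**Figure D3:**
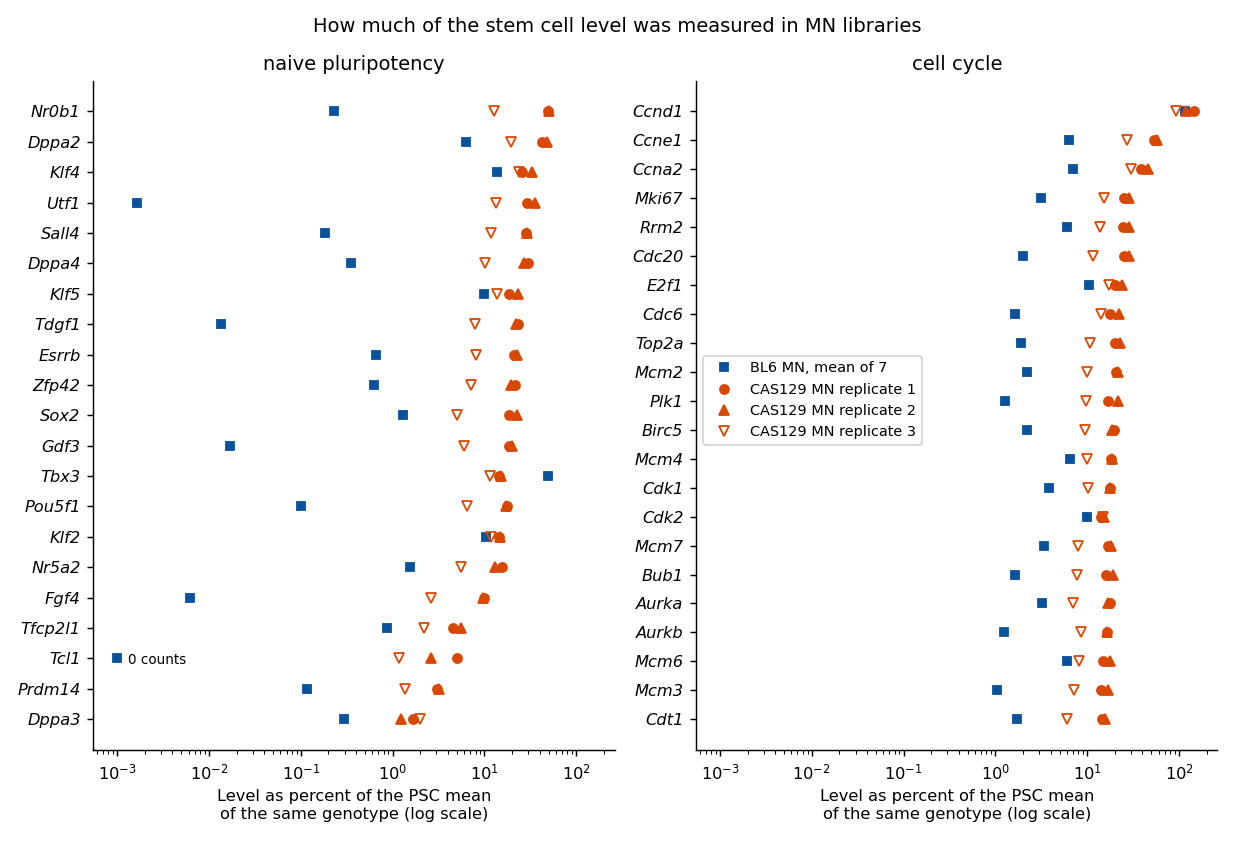
Level in MN as a percent of the mean PSC level of the same genotype (log axis) for 21 naive pluripotency genes and 22 cell cycle genes, with the mean of the 7 BL6 MN libraries as squares and each CAS129 MN library as a circle or triangle. CAS129 MN replicate 3 (open triangles) is the lowest of the 3 in 20 and 21 genes, and the square of Tcl1, which had 0 counts in BL6 MN, is drawn at the left edge.

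Some genes were lower in CAS129 PSC and also higher in CAS129 MN. Lin28a (chromosome 4, 134003330-134018841, minus strand), which encodes an RNA-binding protein that blocks maturation of let-7 microRNAs, stood at 331 and 275 CPM in BL6 PSC but at 59.3 and 42.5 CPM in CAS129 PSC. In MN it was 0 to 0.69 CPM in BL6 and 118, 137 and 56.6 CPM in CAS129. The CAS129 MN mean was 204% of the CAS129 PSC mean, with 111% in replicate 3, although that rise did not pass the test (1.03, adjusted p = 0.054). The difference of changes was 10.80 (SE 0.75, adjusted p = 6.4e-07), with -2.57 in PSC and 8.22 in MN. Lin28a shares exon bases with Gm13061 on the opposite strand, so reads of the pair cannot be told apart without strand.

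Other genes of the Lin28 group also had a higher change, though not all were lower in CAS129 PSC. Lin28b, its paralogue, was 53.7 and 19.5 CPM in BL6 PSC, 7.52 and 9.49 CPM in CAS129 PSC, 1.73 to 7.33 CPM in BL6 MN and 15.7, 23.5 and 11.5 CPM in CAS129 MN. Its difference was 3.80 (SE 0.73, adjusted p = 0.0038). L1td1, an RNA-binding protein derived from a transposon, was 635 and 383 CPM in CAS129 PSC and 422 and 337 CPM in BL6 PSC, and the ranges overlapped. It remained at 282, 322 and 101 CPM in CAS129 MN against 0 to 1.3 CPM in BL6 MN, a difference of changes of 8.02 (SE 0.75). Of the 6 Lin28 and oncofetal RNA-binding genes tested, 1 had a lower change with RLE scaling, after centring or with DESeq2. In the main fit none did and 4 had a higher change, with a median of 3.02. The fourth was Igf2bp1, whose call ended without CAS129 PSC replicate 2 (1.97, adjusted p = 0.0688).

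DNA methylation genes gave both layouts in 1 list. Of 7 tested, 5 had a higher change (Dnmt3a, Dnmt3l, Uhrf1, Tet1 and Tet2) and none a lower one, with a median of 2.42. Dnmt3a (chromosome 12, 3806007-3914443, plus strand), a de novo methyltransferase, was 224 and 383 CPM in BL6 PSC and only 35.2 and 32 CPM in CAS129 PSC. In MN it was 101 to 197 CPM in BL6 and 79.7, 89.6 and 54.5 CPM in CAS129, so it fell in BL6 by 1.27 and rose in CAS129 by 1.15. The difference was 2.42 (SE 0.41, adjusted p = 0.0017). Uhrf1, which recruits the maintenance methyltransferase, did not differ beyond the spread in PSC (0.46, adjusted p = 0.55) and was 127, 132 and 53.8 CPM in CAS129 MN against 2.6 to 9.74 CPM in BL6 MN. Tet1, which oxidises methylcytosine, had the same layout, with 177, 182 and 63 CPM against 7.49 to 22.8 CPM. Dnmt3l, the cofactor of Dnmt3a, was lower in CAS129 PSC (-2.09, adjusted p = 0.0033) and higher in CAS129 MN (5.19), a difference of changes of 7.28 (SE 0.67). Dnmt3l shares exon bases with Aire on the opposite strand.

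Of 14 formative and primed genes tested, 6 had a higher change (Otx2, Dnmt3a, Dnmt3l, Zic2, Sox3 and Etv4) and none a lower one, and the median was 2.10. Zic2 (chromosome 14, 122475435-122479852, plus strand), a zinc finger factor, was 69.5 and 70.3 CPM in BL6 PSC and 69.3 and 74.1 CPM in CAS129 PSC. In MN it stood at 0.583 to 1.87 CPM in BL6 and 17.2, 17.7 and 9.77 CPM in CAS129, so the MN groups did not overlap while the PSC groups did. The difference was 3.57 (SE 0.48, adjusted p = 0.00037). Of 11 Nodal and Lefty genes 4 had a higher change and none a lower one. With DESeq2 5 were higher and 2 lower, and with RLE scaling 4 and 1. The list median was 0.64, between 0.35 and 1.07 with 1 library left out. It was 1.20 with a replicate block and 0.08 when genes at 0 in CAS129 PSC or CAS129 MN were left out. Nodal, the ligand that needs Tdgf1, was 89.4 and 87.8 CPM in BL6 PSC and 202 and 74.5 CPM in CAS129 PSC. It stood at 17.7, 25.6 and 8.35 CPM in CAS129 MN against 0 to 0.651 CPM in BL6 MN, a difference of 5.80 (SE 0.89, adjusted p = 0.0009). Zscan10, a zinc finger factor of stem cells, had a difference of 7.97 (SE 0.86, adjusted p = 5.8e-05).

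Most cell cycle genes fell less in CAS129. Of 22 tested, 21 fell in BL6 and 21 in CAS129, where 36.2% and 30.3% of all genes tested fell. In the difference of changes 14 had a higher change and none a lower one, against 9.71% and 5.26% of all genes tested. The median difference was 2.83. The 22 fitted differences were all positive. Without CAS129 PSC replicate 2 the count was 9. The 14 called were Mcm2, Mcm3, Mcm6, Mcm7, Top2a, Ccna2, Ccne1, Aurkb, Bub1, Plk1, Cdc20, Cdc6, Cdt1 and Birc5, which act in DNA replication or in mitosis. Mcm2 (chromosome 6, 88883474-88898780, minus strand), a subunit of the replicative helicase, was 645 and 847 CPM in BL6 PSC and 1165 and 778 CPM in CAS129 PSC. In MN it ran from 10.7 to 25.5 CPM in BL6 and was 198, 213 and 97.1 CPM in CAS129. The difference was 2.99 (SE 0.56, adjusted p = 0.0033). Mcm3 from the same helicase had 3.65 (SE 0.77, adjusted p = 0.0063). Mcm7 lost its call without CAS129 PSC replicate 2 (1.75, adjusted p = 0.0908). Top2a lost its call without either CAS129 PSC library or without CAS129 MN replicate 1 or 2, at 2.98 to 3.5 and adjusted p of 0.0546 to 0.0957.

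The cell cycle list moved with the naive list across the CAS129 MN libraries. The median percent of the PSC level was 18.03%, 20.5% and 10.1% in replicates 1, 2 and 3, and replicate 3 was the lowest in 21 of 22 genes. The summed cell cycle level was 8001 to 8026 CPM in BL6 PSC, 9304 to 11028 CPM in CAS129 PSC, 280.3 to 836 CPM in BL6 MN and 1209 to 2400 CPM in CAS129 MN. Summed neural progenitor markers were 1146 to 1206 CPM in CAS129 MN and 473 to 815 CPM in BL6 MN. The same sum was 1179 to 1196 CPM in BL6 PSC and 718 to 863 CPM in CAS129 PSC. Of the 17 genes, 6 were called higher and 6 lower in CAS129 MN, against 23.8% and 24.4% of all genes tested. Their mean log2 level (CPM + 1) overlapped, at 2.67 to 3.61 in BL6 MN and 3.05 to 3.29 in CAS129 MN. The part of other cell types in the cell cycle result was not tested.

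Targets and feedback inhibitors of FGF signalling had the opposite layout: most were called between the PSC groups and not between the MN groups. Of 15 FGF and LIF signalling genes tested, 7 had a higher change (Fgf4, Fgfr2, Spry2, Spry4, Dusp6, Etv4 and Spred1) and none a lower one, a count that was 7 in each of the 24 alternatives. The median over the list was 1.32. In PSC 7 of the 15 were lower in CAS129 and none higher, against 18.0% and 11.9% of all genes tested. Fgf4, the ligand described above, was the only one of the 7 with a higher change in which the MN groups differed and the PSC groups did not.

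Spry4 (chromosome 18, 38586247-38601415, minus strand), a Sprouty inhibitor of receptor tyrosine kinase signalling, was 149.9 and 120.3 CPM in BL6 PSC. The CAS129 PSC libraries held 4 counts together (0.734 and 0 CPM; 0.388 CPM over the group, exact Poisson 95% interval 0.106 to 0.994). Its MN levels were 40.7 to 54.7 CPM in BL6 and 46.3, 51.7 and 38.7 CPM in CAS129, and these ranges overlapped. Its difference of changes was 8.37 (SE 0.52, adjusted p = 3.8e-07), with -8.39 in PSC and -0.02 in MN. Its fitted size rests on those 4 counts and was 13.1 without CAS129 PSC replicate 1, which leaves a library at 0 counts.

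Etv4 (chromosome 11, 101769742-101785371, minus strand), an ETS transcription factor induced by FGF, repeated this. It was 131 and 303 CPM in BL6 PSC, 1.83 and 1.03 CPM in CAS129 PSC, 24.2 to 38.4 CPM in BL6 MN and 43.9, 38.2 and 31.4 CPM in CAS129 MN. The difference was 7.65 (SE 0.51, adjusted p = 6.4e-07), with 0.44 in MN (adjusted p = 0.13). Etv4 fell by 2.96 in BL6 and rose by 4.69 in CAS129.

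Dusp6 (chromosome 10, 99263231-99267489, plus strand), the phosphatase that inactivates ERK, was 124 and 90.3 CPM in BL6 PSC and 8.44 and 0.206 CPM in CAS129 PSC, which differed widely from each other. In MN it was 69.5 to 138 CPM in BL6 and 65.3, 75.4 and 44.7 CPM in CAS129. Its difference was 3.71 (SE 0.77, adjusted p = 0.0057), and it was 8.03 without CAS129 PSC replicate 1 and 2.77 without replicate 2. Spry2 (2.91, SE 0.44) and Spred1 (2.26, SE 0.39), both inhibitors of the same pathway, were lower in CAS129 PSC by 3.05 and 2.50 and differed by -0.14 (adjusted p = 0.66) and -0.24 (adjusted p = 0.38) in MN. These 5 genes were called lower in CAS129 PSC and were not called between the MN groups. All 3 CAS129 MN libraries lay below the BL6 MN range for Spred1 (145, 144 and 139 CPM against 152 to 206 CPM), and the ranges overlapped for the other 4.

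**Figure D4:**
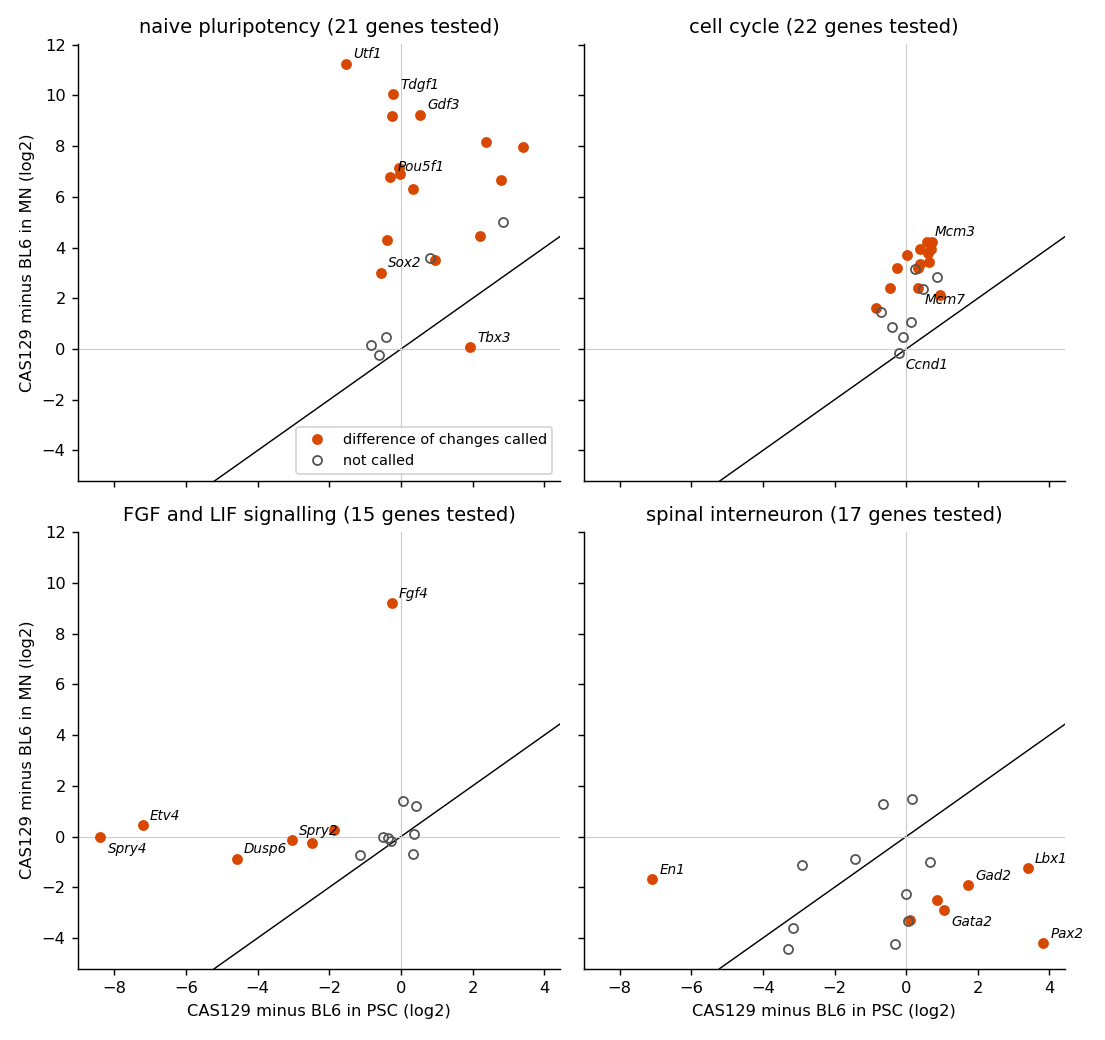
Difference between CAS129 and BL6 in PSC (horizontal axis) and in MN (vertical axis), both log2, for the genes of 4 lists, with the line on which the difference of changes is 0. Filled points passed the test of the difference of changes: naive and cell cycle genes other than Tbx3 lie above the line, most through the MN axis, FGF targets such as Spry4 and Etv4 to its left through the PSC axis, and interneuron genes mostly below it.

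Several neural and axon genes also started lower in the hybrid stem cells. Foxp1 (chromosome 6, 98925338-99522721, minus strand), a transcription factor of limb motor columns that is also used in stem cells, was 63.8 and 100.2 CPM in BL6 PSC and 3.12 and 4.33 CPM in CAS129 PSC. It reached 128 to 168 CPM in BL6 MN and 164, 155 and 165 CPM in CAS129 MN. Its difference of changes was 4.56 (SE 0.32, adjusted p = 6.4e-07), with 0.10 in MN (adjusted p = 0.63). Foxp1 shares exon bases with Gm20696 and Gm49348 on its own strand, which could take part of its reads. Nrp2, a receptor for class 3 semaphorins, was 27.1 and 64.1 CPM in BL6 PSC, 7.34 and 5.98 CPM in CAS129 PSC, 224 to 290.3 CPM in BL6 MN and 301, 286 and 284 CPM in CAS129 MN. Its difference was 3.01 (SE 0.38, adjusted p = 0.00019).

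Dpysl3, a cytoskeletal protein of growth cones, was 72.2 and 32.1 CPM in BL6 PSC and 17.6 and 1.65 CPM in CAS129 PSC. In CAS129 MN it was 3635, 3594 and 3885 CPM, all above the BL6 MN range of 1697 to 2396 CPM, although that difference did not pass the test (0.86, adjusted p = 0.068). Its difference of changes was 3.28 (SE 0.72, adjusted p = 0.0077), and it was 5.82 without CAS129 PSC replicate 1. Of 18 axon growth genes 6 had a higher change (Gap43, Sox11, Klf7, Crmp1, Dpysl3 and Marcks) and Dpysl4 a lower one, with a median of 1.01. In PSC 11 of the 18 were lower in CAS129 and 1 was higher, against 18.0% and 11.9% of all genes tested. The median was 0.60 without BL6 PSC replicate 1. The higher calls were 2 with a replicate block, 3 with RLE scaling, 7 with upper-quartile scaling and 9 without a filter on low counts. The 6 became 3 without BL6 PSC replicate 1, CAS129 MN replicate 2 or CAS129 MN replicate 3, and 2 without CAS129 PSC replicate 1. Gap43, a growth cone protein, had 0 counts in CAS129 PSC (3 counts over the group would be 0.291 CPM) and 145, 165 and 218 CPM in CAS129 MN, with replicate 3 alone inside the BL6 MN range of 177 to 706 CPM. Its call ended with a replicate block (adjusted p = 0.0708) and without CAS129 MN replicate 2 or 3 (adjusted p of 0.0515 and 0.0525). It also ended without BL6 PSC replicate 1 or either CAS129 PSC library.

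Epithelial genes and patterning genes had smaller lists. Of 12 epithelial genes 5 had a higher change (Epcam, Cldn6, Cldn7, Esrp1 and Spint2) and none a lower one, with a median of 2.19, and without BL6 PSC replicate 2 the count was 3. Esrp1, a splicing regulator of epithelial cells, was 105 and 112 CPM in BL6 PSC, 5.5 and 4.95 CPM in CAS129 PSC and 6.16, 6.45 and 5.15 CPM in CAS129 MN. It moved by 0.18 in the hybrid (adjusted p = 0.77), fell to 0 to 0.651 CPM in BL6 MN, and had a difference of 8.34 (SE 0.72). Esrp1 shares exon bases with Gm26663 on the opposite strand. Epcam, an adhesion protein, was 432 and 521 CPM in BL6 PSC, 69 and 127 CPM in CAS129 PSC, 1.1 to 9.79 CPM in BL6 MN and 39.7, 36.2 and 18.5 CPM in CAS129 MN (difference 5.09, SE 0.88).

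Of 8 hedgehog genes 3 had a higher change (Gli1, Gli2 and Gli3), a count that was 1 without CAS129 MN replicate 1, CAS129 MN replicate 2, CAS129 PSC replicate 2 or BL6 PSC replicate 1. Gli1, a transcriptional target and effector of the pathway, kept its call throughout, with 54.8 and 82.5 CPM in BL6 PSC, 8.81 and 5.36 CPM in CAS129 PSC, 0 to 0.583 CPM in BL6 MN and 2.43, 6.12 and 1.6 CPM in CAS129 MN (6.97, SE 0.83). Of 14 retinoic acid genes 3 had a higher change (Rara, Rarg and Crabp1), and 1 without CAS129 PSC replicate 2. The receptor gene Rarg fell in BL6 from 112 and 294 CPM to 27.5 to 47.2 CPM, and rose in CAS129 from 35 and 36.5 CPM to 86, 94.7 and 66.6 CPM (3.68, SE 0.44, adjusted p = 0.00014). Of 17 neural progenitor genes 4 had a higher change (Sox1, Sox2, Sox3 and Nkx6-2), and 2 without either CAS129 PSC library. Sox1, a factor of neural precursors, was 0.1 to 1.38 CPM in BL6 MN and 9.88, 22 and 7.1 CPM in CAS129 MN, with 11.8 and 15.7 CPM in BL6 PSC and 4.04 and 5.57 CPM in CAS129 PSC (6.08, SE 0.96, adjusted p = 0.0011).

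Among genes with a lower change, several were already high in the hybrid stem cells. Epha4 (chromosome 1, 77367185-77515088, minus strand), a receptor for ephrins that guides motor axons, was 7.78 and 4.64 CPM in BL6 PSC and 92.5 and 57.1 CPM in CAS129 PSC. It was 75.8 to 124 CPM in BL6 MN and 110.2, 105 and 105 CPM in CAS129 MN, and these ranges overlapped. The difference was -3.41 (SE 0.36, adjusted p = 4.1e-05), with 3.59 in PSC and 0.18 in MN (adjusted p = 0.46). Epha4 was the only 1 of 21 Eph receptor and ephrin genes with a lower change. Another 6 had a higher one (Epha1, Ephb2, Ephb3, Efna5, Efnb1 and Efnb2), and 2 without CAS129 PSC replicate 2.

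Slc7a11 (chromosome 3, 49892526-50443614, minus strand), the cystine transporter, was high in both hybrid cell types: 378 and 219 CPM in CAS129 PSC and 342, 335 and 310.4 CPM in CAS129 MN. In BL6 it was 1.43 and 0.591 CPM in PSC and 7.51 to 15.9 CPM in MN. It rose by 3.44 in BL6 and moved by 0.14 in CAS129 (adjusted p = 0.72), so the difference was -3.30 (SE 0.50, adjusted p = 0.00082). Hk1, a hexokinase at the head of glycolysis, was 456 and 294 CPM in CAS129 PSC and 148 and 158 CPM in BL6 PSC, and the MN groups overlapped (difference -1.47, SE 0.30, adjusted p = 0.0046). Mbp, a protein of myelin whose locus also makes other transcripts, was 44.2 and 58 CPM in CAS129 PSC against 12.1 and 6.07 CPM in BL6 PSC. It was 4.54, 6.45 and 6.39 CPM in CAS129 MN and 8.23 to 18.3 CPM in BL6 MN (-3.54, SE 0.51).

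A few genes of little expression in BL6 stem cells marked the CAS129 ones. Klb, the co-receptor for endocrine FGFs, had 1 count in the BL6 PSC libraries together (0.0409 CPM, exact Poisson 95% interval 0.001 to 0.228) and 50.5 and 36.1 CPM in CAS129 PSC. The MN levels were 0.138 to 3.38 CPM in BL6 and 0.486, 2.48 and 2.49 CPM in CAS129. The fitted difference was -9.13 (SE 1.56, adjusted p = 0.0019). Trpm1, a cation channel, was 54.1 and 23.9 CPM in CAS129 PSC and at or below 1.05 CPM in every library of the other 3 groups (-7.52, SE 1.51). Mall, a membrane protein, was 10.8 and 12.2 CPM in CAS129 PSC and also at or below 1.05 CPM elsewhere (-7.03, SE 1.09).

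Other genes with a lower change crossed over, being higher than BL6 in the hybrid stem cells and lower in the MN libraries. Slc1a1 (chromosome 19, 28835049-28913960, plus strand), a neuronal glutamate transporter, was 1.35 and 0.253 CPM in BL6 PSC and 25.3 and 13.8 CPM in CAS129 PSC. In MN it was 13.6 to 72.6 CPM in BL6, with a median of 28.3, and 2.75, 1.82 and 2.31 CPM in CAS129. It rose by 5.28 in BL6 and fell by 3.09 in CAS129, a difference of -8.37 (SE 1.002, adjusted p = 0.00014). Slc1a1 shares exon bases with 4430402I18Rik on the opposite strand. Trim66, a chromatin reader, went from 0.556 and 0.422 CPM to 4.2 to 15.4 CPM in BL6 and from 17.4 and 22.5 CPM to 2.43, 1.82 and 1.24 CPM in CAS129 (-7.49, SE 0.82). Car8, a carbonic anhydrase-related protein of neurons, had -6.81 (SE 0.82), and Fmod, a matrix proteoglycan, -7.52 (SE 1.01). Slc51a, a subunit of a steroid transporter, did not differ in PSC (-0.79, adjusted p = 0.34) but held 1 count in CAS129 MN against 7.87 to 14.9 CPM in BL6 MN (-6.61, SE 1.03). It shares exon bases with Pcyt1a on the opposite strand.

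Some spinal interneuron genes had a lower change in CAS129, a count that rested on single libraries. Of 17 tested, 6 had a lower change (Pax2, Gata2, Gad1, Gad2, Lmx1b and Lbx1), En1 had a higher one and 10 were not called. The median difference was -2.26, and without CAS129 PSC replicate 2 it was -0.43. Of the 17, 13 rose in BL6 and 5 in CAS129, where 34.7% and 28.8% of all genes tested rose, so the CAS129 share was near that of all genes. In MN 12 of the 17 were lower in CAS129 and none higher, against 24.4% and 23.8% of all genes. Pax2 (chromosome 19, 44756045-44837871, plus strand), a transcription factor of inhibitory interneurons, was 12.4 to 57.7 CPM in BL6 MN and 1.46, 1.98 and 1.42 CPM in CAS129 MN. The BL6 PSC libraries held 2 counts together, and CAS129 PSC stood at 1.47 and 1.24 CPM. The difference was -8.02 (SE 1.52, adjusted p = 0.0034), and of Pax2, Gata2, Gad1 and Gad2, the members with the highest mean level, Pax2 alone kept its call in all 24 alternatives. Gata2, of V2b interneurons, was 24.4 to 81.5 CPM in BL6 MN and 6.8, 4.79 and 8.52 CPM in CAS129 MN (-3.95, SE 0.83, adjusted p = 0.0059). Gata2 was no longer called without CAS129 PSC replicate 2 (-2.79, adjusted p = 0.0683). The count of 6 was 3 without BL6 PSC replicate 2, BL6 MN replicate 1, BL6 MN replicate 5, CAS129 MN replicate 1 or CAS129 MN replicate 3, 2 without CAS129 MN replicate 2 and 1 without CAS129 PSC replicate 2. With a replicate block the 6 became 3, and En1 was not called. En1 was also not called with DESeq2 or after genes at 0 in CAS129 PSC or CAS129 MN were left out. Its call ended too without BL6 PSC replicate 1, BL6 MN replicate 4 or 6, CAS129 MN replicate 2 or either CAS129 PSC library. The summed level of the list was 180.1 to 600.1 CPM in BL6 MN, 48.8 to 61.8 CPM in CAS129 MN and at most 49.3 CPM in PSC.

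For motor neuron and pan-neuronal genes the 2 genotypes rose by amounts that mostly did not differ by the test. Of 23 motor neuron genes, 21 rose in BL6 and 17 in CAS129, against 34.7% and 28.8% of all genes tested. In the difference of changes 2 had a higher change (Foxp1 and Slit3) and 2 a lower one (Nefh and Onecut2). The calls of Slit3 and Onecut2 ended without CAS129 PSC replicate 2 (2.16, adjusted p = 0.162, and -2.36, adjusted p = 0.261), and that of Slit3 also without BL6 PSC replicate 1 or CAS129 MN replicate 1 or 2. The list median was 0.01 and ran from -0.86 to 1.04 over the alternatives. Isl1, a defining transcription factor, was 6.9 to 19.3 CPM in BL6 MN and 7.29, 10.2 and 12.4 CPM in CAS129 MN, with a difference of changes of -0.40 (SE 1.13, adjusted p = 0.86). Chat, which makes acetylcholine, was 3.73 to 14.9 CPM in BL6 MN and 1.62, 3.14 and 6.21 CPM in CAS129 MN, with 1 count in each PSC group (-2.44, SE 2.14, adjusted p = 0.48). Mnx1, another defining factor, was 2 to 11.2 CPM in BL6 MN and 1.62, 0.827 and 3.37 CPM in CAS129 MN, and its rise passed the test in neither genotype (difference 0.01, SE 0.69).

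Many genes of the neuronal lists were lower in the CAS129 MN libraries. In MN 14 of the 23 motor neuron genes, 17 of 18 pan-neuronal genes and 26 of 29 synaptic genes were lower in CAS129, against 24.4% of all genes tested. These are bulk cultures, so fewer neurons and less of this RNA per neuron cannot be told apart. In the difference of changes the same lists had 2, 2 and 3 genes with a lower change and 2, 1 and 1 with a higher one, against 5.26% and 9.71%. Their median differences of changes were 0.01, -0.36 and -0.67. Taken separately, the list medians were -1.44, -1.64 and -1.88 between the MN groups and -1.28, -1.86 and -1.35 between the PSC groups. The pan-neuronal and synaptic counts changed with single libraries: the lower calls ran from 1 to 5 and from 1 to 6 over the alternatives. Tubb3, a neuronal tubulin, was 66 and 66.3 CPM in BL6 PSC, 47.1 and 31.8 CPM in CAS129 PSC, 424 to 1147 CPM in BL6 MN and 268, 307 and 318 CPM in CAS129 MN. Its MN difference was -1.12 (adjusted p = 0.0036), while its difference of changes was -0.37 (SE 0.47, adjusted p = 0.64), an interval too wide to show that the changes were alike.

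Nefh and Unc13a were neuronal genes with a lower change whose calls held in every alternative. Nefh, a heavy neurofilament, was 36.5 and 20.5 CPM in BL6 PSC and 134 and 91.8 CPM in CAS129 PSC. The BL6 MN libraries held 70.3 to 228 CPM and the CAS129 ones 60.6, 85 and 71.7 CPM. It rose in BL6 by 2.14 and moved by -0.64 in CAS129 (adjusted p = 0.19), a difference of -2.78 (SE 0.57, adjusted p = 0.0054). Unc13a, a priming factor of synaptic vesicles, fell in CAS129 from 152 and 125 CPM to 67.2, 75.2 and 87.9 CPM and rose in BL6 from 71 and 103 CPM to 120.5 to 296 CPM (-1.89, SE 0.43, adjusted p = 0.0092). Its exons overlap Colgalt1 on the opposite strand.

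Imprinted genes, of which only 1 parental copy is expressed, moved in both directions. Of 22 tested, 8 had a higher change (Meg3, H19, Igf2, Mest, Cdkn1c, Ndn, Sgce and Phlda2) and 3 a lower one (Plagl1, Snrpn and Usp29), 5 without BL6 PSC replicate 1. Igf2 (chromosome 7, 142650766-142666816, minus strand), a fetal growth factor, was 5.64 and 6.92 CPM in BL6 PSC and 7.89 and 7.01 CPM in CAS129 PSC. It rose to 14.8 to 58.5 CPM in BL6 MN, with a median of 43.2, and to 418, 490.2 and 535 CPM in CAS129 MN, with no overlap. The difference was 3.37 (SE 0.64, adjusted p = 0.0034). Plagl1, an imprinted zinc finger gene, was already 84.4 and 103 CPM in CAS129 PSC against 7.78 and 1.94 CPM in BL6 PSC, and reached 349, 367 and 459.5 CPM in CAS129 MN and 113 to 161 CPM in BL6 MN (-2.71, SE 0.48, adjusted p = 0.0022). Plagl1 overlaps Gm27741 on the opposite strand.

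Markers of other cell types were read beside these results. Of 18 mesenchyme and fibroblast genes 16 rose in BL6 and 17 in CAS129, against 34.7% and 28.8% of all genes tested, and 2 had a higher change (Twist1 and Prrx1), 6 without CAS129 PSC replicate 1. Their summed level was 35475 to 70507 CPM in BL6 MN and 57721 to 61620 CPM in CAS129 MN, above the 2542 to 6974 CPM of the PSC libraries. Endoderm and trophoblast genes had no call in the difference of changes among 10 tested, and their summed level was 455 to 841 CPM in CAS129 MN and 133 to 475 CPM in BL6 MN. Sensory neuron genes had none among 6. DESeq2 called 0 and 1 genes of these lists. Of 10 glia genes 1 had a higher change (Pdgfra) and 2 a lower one (Mbp and Aldh1l1). The higher calls of the glia list and of the mesenchyme and fibroblast list were near the 9.71% of all genes tested. These counts refer to edgeR, with 4408 of all genes tested at an unadjusted p under 0.05, and the part of these cell types in any result was not tested.

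The other lists had few calls, to be read beside the 9.71% higher and 5.26% lower of all genes tested. The 2 higher calls among 16 activin and TGF-beta genes were near the first of these shares. Of 27 Hox genes 1 had a higher change (Hoxb3) and 4 a lower one (Hoxa7, Hoxb9, Hoxc4 and Hoxd9). The lower calls were 0 with a replicate block and 2 without CAS129 MN replicate 1 or 2. They were also fewer without BL6 PSC replicate 2 or CAS129 PSC replicate 1. The higher calls were 3 without BL6 PSC replicate 1 and 2 without BL6 MN replicate 7 or CAS129 PSC replicate 2. Of 16 activin and TGF-beta genes 2 had a higher change (Tgfb1 and Ltbp3), 0 without CAS129 PSC replicate 2, 1 without BL6 MN replicate 1 or any CAS129 MN library, 5 without BL6 PSC replicate 2 and 6 without CAS129 PSC replicate 1. Inhba, the subunit of activin A, rose in both genotypes, from 39.9 and 14.3 CPM to 321 to 1084 CPM in BL6 and from 3.85 and 0.206 CPM to 294, 249 and 255 CPM in CAS129 (difference 2.26, SE 0.85, adjusted p = 0.085). Inhba was called as higher with DESeq2 (2.16), and without CAS129 PSC replicate 1 (5.50, adjusted p = 0.02) or BL6 PSC replicate 2 (2.82, adjusted p = 0.0495). Of 16 glycolysis genes 3 had a higher change and 2 a lower one, and the 3 became 7 without BL6 PSC replicate 1 and 0 without BL6 PSC replicate 2 or CAS129 PSC replicate 1. The 2 became 1 without BL6 PSC replicate 1, CAS129 MN replicate 1 or 2, or CAS129 PSC replicate 1. Of 22 axon guidance genes 5 had a higher change and 1 a lower one. The 5 became 3 without CAS129 MN replicate 1 or 2, and were also fewer without BL6 PSC replicate 1 or either CAS129 PSC library. The balance depended on the test and scaling. It was 6 higher and 5 lower with DESeq2, 5 and 3 after centring, 5 and 2 with RLE scaling and 5 and 0 with a replicate block.

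Some called genes had a group at 0 counts, where the fitted difference is not a bound and levels are given instead. There were 74 such genes with a higher change and 35 with a lower one. Dchs1, a large cadherin, had 0 counts in CAS129 PSC (3 counts over the group would be 0.291 CPM), 3.89 and 1.94 CPM in BL6 PSC, 76.1, 86.8 and 86.3 CPM in CAS129 MN and 87 to 198 CPM in BL6 MN. Mdga2, an adhesion protein of synapses, had 0 counts in BL6 PSC, where the same floor is 0.123 CPM, and 2.2 and 1.65 CPM in CAS129 PSC. It reached 13.6 to 62.4 CPM in BL6 MN and 6.8, 12.1 and 13.1 CPM in CAS129 MN. Both calls held in the alternatives that tested them. Mapk8ip2, a scaffold protein of neurons, was 56.4 to 208 CPM in BL6 MN and had 0 counts in all 3 CAS129 MN libraries (floor 0.168 CPM), and its call ended without CAS129 PSC replicate 2 (adjusted p = 0.124).

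**Figure D5:**
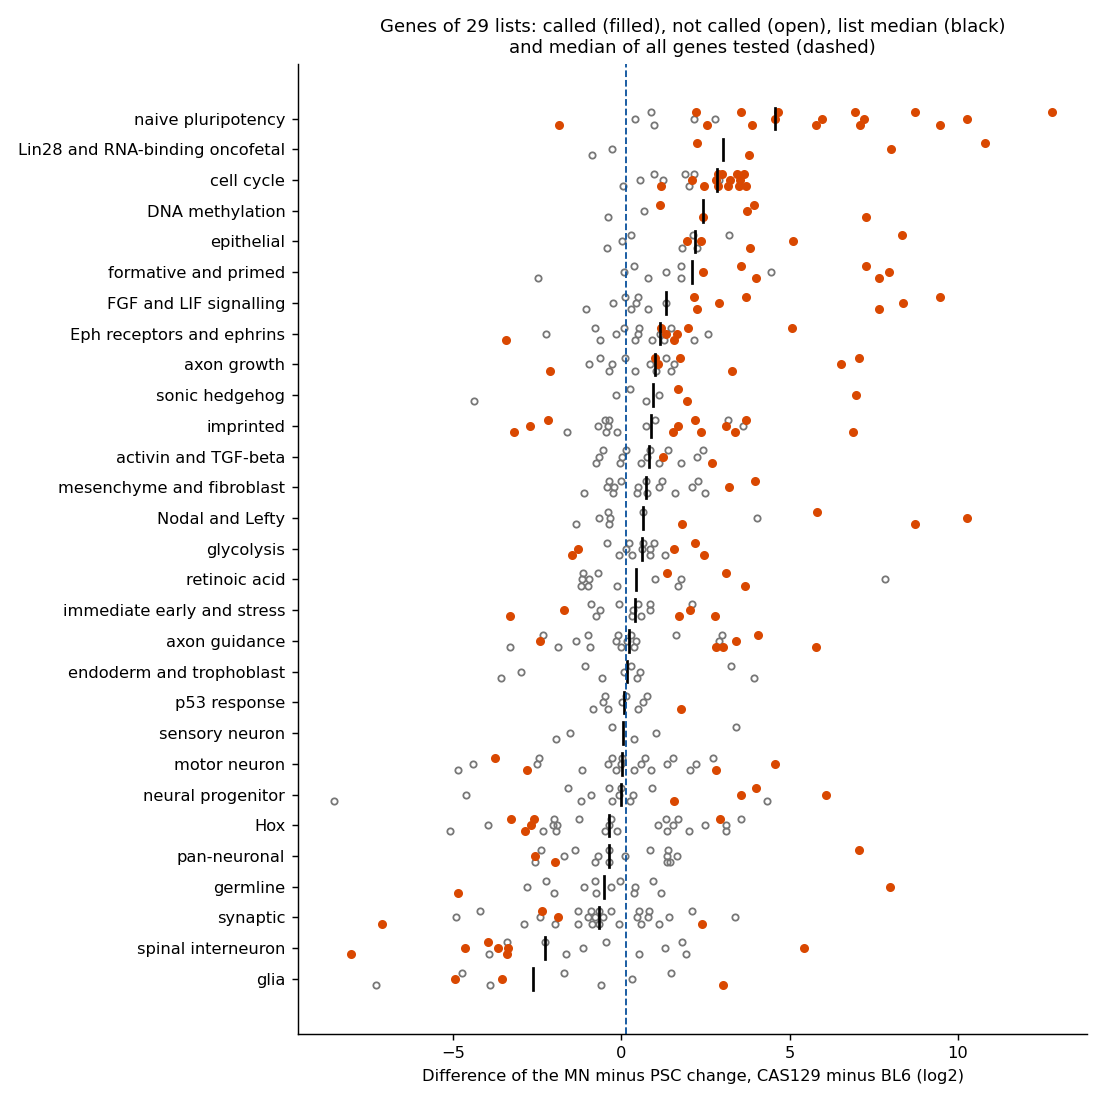
Difference of the PSC to MN change, CAS129 minus BL6 (log2), for each gene of 29 lists, ordered by the list median (black bar), with filled points for called genes and a dashed line at the median of all genes tested, 0.15. The naive list has a median of 4.58 and the cell cycle list of 2.83, and the spinal interneuron list lies at -2.26, or at -0.43 without CAS129 PSC replicate 2.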

How the data were processed

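Polyadenylated RNA of 20 libraries was available as read counts per gene, deposited by the authors as whole numbers with no normalisation. Per the submitters' processing notes, STAR and the build GRCm38 (mm10) were used for them, while TopHat2, SAMtools and HTSeq are named for the other 7 samples of the series alone. For the 20 libraries the sources used here do not give the counting program, the annotation, the strand setting and any second genome for the hybrid. No kit that marks strand is named in the labels' protocols. The table has 28 columns of counts; 20 were matched by name to a sample, and the other 8 were left unused. Gene names and positions were taken from GENCODE M21 (GRCm38). The 14 libraries of the 4 groups were fitted together with edgeR 4.0.16 in R 4.3.3 (TMM scaling, glmQLFit, glmQLFTest, 2-sided, 10 residual degrees of freedom, Benjamini-Hochberg adjustment over 14454 genes, threshold 0.05). Standard errors (SE) are the size of the log2 value over the root of its F statistic. Levels are CPM scaled with TMM factors. The fit was tested on simulated data. DESeq2 1.42.0, other scalings and filters, a replicate block and the omission of each library were tried. No replicate pair differed by so little as to look like 1 library deposited more than once (lowest chi-square per degree of freedom 2.96).

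The comparison, its marker genes and the 30 gene lists were chosen with earlier results of these data known. Named genes were 11 fixed genes and, in each list, the 4 or fewer called members of highest mean CPM. To these were added the 12 largest differences in each direction among called genes with a group mean of at least 10 CPM. These 12 also needed a count in every group and the same direction under TMM, RLE and each left-out library. Of called genes with a group at 0, the 5 in each direction with the highest group mean were added as well. Other list members are named only as counted, apart from Tbx3, which was singled out after its values were seen. Some genes are not reported here and were left out of the lists. Intervals and floors cover counting error only.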

Additional observations from a re-analysis of the deposited data

Results flagged for a closer look

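The 2165 genes whose change differed between CAS129 and BL6 stand out because the difference itself was tested. Of the 122 named genes, 27 (22.1%) had 1 BL6 MN library set apart from the other 6 by Dixon's criterion. Chance meets it in about 1 in 20 groups of normally distributed values, and the named genes share these libraries. For Utf1, Gdf3, Fgf4, Platr10, 2610528J11Rik, Kirrel2 and Gm13061 the other 6 libraries held 0 CPM. The criterion was bound to be met in these genes, and that rate does not apply to them. In 15 of the 27 genes the library set apart was BL6 MN replicate 2. This library was the highest for Tubb3 (1147 CPM), Syn1 (332 CPM), Pfkp (304 CPM), Unc13a (296 CPM), Hk1 (282 CPM), Dchs1 (198 CPM), Dnmt3a (197 CPM), Kcnc1 (106 CPM), Slc1a1 (72.6 CPM) and Aldh1l1 (71 CPM). It was also the highest for Etv4 (38.4 CPM), Tet1 (22.8 CPM), Mnx1 (11.2 CPM) and 2610528J11Rik (0.102 CPM), and the lowest for Rara (29.5 CPM). BL6 MN replicate 4 was the highest for Sorbs2 (270.0 CPM), Sema3c (268 CPM), Ltbp3 (263 CPM) and Fgf4 (0.133 CPM). Replicate 1 stood apart for Prrx1 (77.9 CPM), Utf1 (0.1 CPM) and Kirrel2 (0.1 CPM), replicate 5 for Sox3 (1.63 CPM), Zscan10 (0.543 CPM) and Gdf3 (0.109 CPM), and replicate 7 for Gm13061 (0.414 CPM) and Platr10 (0.138 CPM). Without BL6 MN replicate 2 no named gene changed its side of the threshold, and 2518 genes were called.

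In MN libraries outside the comparison, 2 of the 4 marker genes exceeded the highest BL6 MN library. Lin28a stood at 3.21 and 1.52 CPM in 129 MN replicates 1 and 2 and at 0.865 CPM in 129CAS MN. Epha4 stood at 206 and 178 CPM in the 129 MN libraries.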

How the results depend on the processing

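The difference of changes was called for 2165 genes (1404 higher, 761 lower), and the counts changed with single libraries, the replicate block and the test. With 1 library left out they ran from 1213 to 3051 in all, from 713 to 1725 higher and from 475 to 1331 lower. The lowest total was without CAS129 PSC replicate 2 (713 higher, 500 lower) and the highest without BL6 PSC replicate 1 (1720 and 1331). Without CAS129 MN replicate 1 the counts were 929 and 475, and without CAS129 MN replicate 2 they were 948 and 491. Where 1 PSC library remained in a group, it was assumed to vary like the other groups. DESeq2 called 1455 genes lower. The share of higher calls was 64.8%, against 54% with RLE scaling, 52.8% after centring, 50.5% with DESeq2 and 75.8% without a filter on low counts. Same-numbered libraries showed no sign of pairing: their deviations correlated at -0.131 to 0.056 over 13 pairs, against -0.158 to 0.154 over 52 others. Deviations of the 2 libraries of a PSC group mirror each other, so these pairs are not independent. Whether the numbers mark a shared batch is not decided by these values. With the replicate block 877 genes were called, 601 higher and 276 lower, and 32 of 116 called named genes lost their call. Of the 116, 57 kept it under all 24 alternatives and none changed direction. The counts for MN against PSC within each genotype and for CAS129 against BL6 within each cell type stayed within 1.5 times under all 24. With 2 PSC libraries in each genotype and under 6 M counts in each CAS129 PSC library, differences of genes low in stem cells have wide errors.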

Other observations

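Libraries of the parental strains and of the 129CAS hybrid took no part in the comparison, and their levels are given here as values, from 1 scaling of all 20 matched libraries. In the 2 CAST PSC libraries the FGF targets were as low as in CAS129 PSC: Etv4 stood at 1.55 and 1.63 CPM, Spry4 at 1.66 and 0.125 CPM and Dusp6 at 5.22 and 2.13 CPM. Foxp1 was 9.1 and 9.9 CPM and Lin28a 63.9 and 70.4 CPM in these libraries. Genes that were high in CAS129 PSC were high in them too, with Klb at 45.5 and 39.4 CPM, Epha4 at 119.8 and 80.5 CPM and Slc7a11 at 377 and 343 CPM. No 129 PSC library was analysed here.

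The stem cell transcripts measured in CAS129 MN were low in the MN libraries of the other lines. Pou5f1 was 0 CPM in the single CAST MN and 129CAS MN libraries and 0.0468 and 0.125 CPM in the 129 MN libraries. Tdgf1 was 0 CPM in CAST MN, 0.165 CPM in 129CAS MN and 0.187 and 0.0498 CPM in 129 MN. Mcm2, of the replicative helicase, ranged from 11.7 to 17.8 CPM over these 4 libraries. Slc7a11 was 591 CPM in CAST MN and 3.79 to 4.91 CPM in the 129 and 129CAS MN libraries. Igf2 was 5.62 CPM in CAST MN, 179 and 174 CPM in 129 MN and 32.2 CPM in 129CAS MN. None of these values was tested, and lines with 1 MN library have no replicate.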
